A study of Homo sapiens with 6 samples.

Results

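The genes described here encode 10 heat shock chaperones of the cytosol and the mitochondria. They were chosen by name as chaperones driven by the heat shock factor HSF1. The names were HSPA1A, HSPA1B, HSPA8, HSPA9, HSPH1, HSP90AA1, HSP90AB1, DNAJB1, HSPD1 and HSPE1, and all 10 were found among the 24960 genes of the count table. RNA came from K562 cells, a chronic myeloid leukemia (CML) line grown in suspension that carries the BCR::ABL fusion. The control group (n = 3 libraries) received no hyperoside, and the hyperoside (2 mM) group (n = 3) received this flavonol glycoside, quercetin with a galactose attached, at a time before RNA extraction that the sources used here do not give. Both groups were the same K562 line, with no other agent or allele in the labels. Since the labels do not say whether replicates were separate cultures, the p-values below measure the spread between these libraries, which may be technical.

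Heat shock proteins bind unfolded or newly made proteins and keep them from aggregating. HSP70 proteins cycle between binding and release using ATP, with J-domain proteins such as DNAJB1 delivering clients and starting ATP hydrolysis, and with HSP110 proteins such as HSPH1 exchanging the nucleotide. HSP90 dimers take over clients such as kinases and steroid receptors, and BCR::ABL is a known HSP90 client. In mitochondria, HSPA9 pulls in and folds imported proteins, and HSPD1 with its lid HSPE1 forms the folding chamber of the matrix. Heat and unfolded protein in the cytosol activate the transcription factor HSF1, which binds inverted repeats of the unit nGAAn, called heat shock elements.

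The chaperones of the cytosol went in opposite directions under hyperoside, and none of the 10 changed by more than 2-fold. DNAJB1, HSPA1B and HSPA8 were higher in the hyperoside group, by 1.80-fold, 1.42-fold and 1.35-fold. HSP90AA1, the stress-responsive cytosolic HSP90, fell to 62.0% of the control mean, and HSP90AB1 and the 3 mitochondrial chaperones HSPA9, HSPD1 and HSPE1 were lower by smaller amounts. HSPA1A and HSPH1 were not called in either direction. A gene was called where its adjusted p by edgeR's quasi-likelihood test lay under 0.05, the Benjamini-Hochberg adjustment being made across 15095 genes. By this test 45.3% of all tested genes were called, 22.1% higher and 23.2% lower in the hyperoside group. Against this background 3 of the 10 chaperones were called higher and 5 lower, and their median log2 fold change was -0.04, beside 0.003 for all tested genes. Of all tested genes 10.2% were both called and changed by more than 2-fold, which was met by 0 of the 10 in edgeR, and by 0 with DESeq2 or limma. The libraries of the groups did not overlap for 8 of the 10 chaperones, with the hyperoside libraries above in 3 and below in 5, while 54.4% of all tested genes showed such a separation, 27.1% above and 27.3% below. In bulk RNA, fewer cells holding a transcript and less of it per cell cannot be told apart.

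The 6 libraries held between 35613283 and 36754725 counts on genes, and each chaperone had between 614 and 144126 counts in each library, so all 10 passed the filter on low counts. All 10 erythroid markers that K562 cells are known for, among them the fetal globins and GATA1, were detected, with a summed level of 5190 to 6690 CPM (counts normalized to library size) in the control group and 3940 to 4720 CPM in the hyperoside group. The labels name bone as the tissue, but the 5 of 6 bone cell markers found in the table summed to 4.57 to 6.29 CPM, fibroblast markers to 5.99 to 8.61 CPM and T and B cell markers to 32.7 to 47.5 CPM, while of the megakaryocytic markers GP1BA was at 0 in every library and ITGA2B was at 17.6 to 26.2 CPM, with a log2 fold change of -0.36 and an adjusted p of 0.0196 by edgeR's quasi-likelihood test. The erythroid sum was carried by the globins HBE1, HBG2 and HBG1, which fell. Of the 10 erythroid markers 3 were called higher, EPOR, KLF1 and ALAS2, and 4 lower, around a median of -0.01 on the log2 scale. The part of these marker changes in the chaperone changes was not tested.

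The sequence before the start sites was searched for heat shock elements. RefSeq (GRCh38.p14) gave 16 windows of 250 bases before a start of the 10 genes, 1 or more per gene. A 3-unit element, which is GAANNTTC followed after NN by another GAA, was searched on both strands. It was found in 4 of the 16 windows, those of HSPA8, HSP90AA1, HSP90AB1 and HSPD1, while 0.441% of the 35116 windows of all genes held one. Since the 10 genes were chosen as driven by HSF1, this share is background and not a test. The shorter 2-unit forms GAANNTTC and TTCNNGAA, each the same on both strands, which lie within the longer element and which 11.6% of all windows held, added HSPA1A, HSPA1B and DNAJB1. HSPA9, HSPH1 and HSPE1 held neither in these windows, which says only that these letters are absent there. The HSPA9 and HSPE1 windows each had 250 of 250 bases in exons of their own gene in GENCODE 29, and the HSPH1 window had 0. The HSPD1 element printed below, within chr2:197500061-197500090, lies outside the HSPE1 window, which begins at chr2:197500129. The 30 bases with the most element letters in each of the 7 windows are shown to compare the elements of genes that moved in opposite directions, read 5′ to 3′ on the strand of the gene with the element in capitals.
DNAJB1: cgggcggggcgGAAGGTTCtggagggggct
HSPA1A: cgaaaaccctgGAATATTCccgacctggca
HSPA1B: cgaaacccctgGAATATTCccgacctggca
HSPA8: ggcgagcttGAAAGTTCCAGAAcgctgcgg
HSP90AA1: tcTTCCGGAAGGTTCgggaggcTTCTGGAA
HSP90AB1: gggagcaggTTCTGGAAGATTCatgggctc
HSPD1: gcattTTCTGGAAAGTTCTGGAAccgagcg
Genes with a match by this search went in both directions, and the part of the elements in these changes was not tested. The 3-unit form preceded HSPA8, which was higher, and HSP90AA1, HSP90AB1 and HSPD1, which were lower, and the 2-unit form preceded DNAJB1 and HSPA1B, which were higher, and HSPA1A, which was not called. HSPA8 holds 3-unit elements at 230 and 55 bases before the start and HSP90AB1 at 165 and 112 bases, and the one further from the start is shown for each. In HSP90AA1 the first capitals begin 88 bases before the start and a 2-unit match follows at 68 bases. These windows belong to 1 of several RefSeq starts of HSP90AA1, HSP90AB1, DNAJB1 and HSPD1, and the data do not tell which start was used. The HSPA8 window also lies inside the gene as RefSeq bounds it, with 250 of its 250 bases in exons of HSPA8 transcripts in GENCODE 29, and the windows of HSP90AA1, HSP90AB1 and HSPD1 held 147, 77 and 250 such bases of their own genes.

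DNAJB1, the J-domain protein that activates HSP70 and is a classical heat shock gene, changed most among the 10. Its level was 137.8, 115.1 and 126.5 CPM in control replicates 1, 2 and 3, and 234.9, 211.1 and 238.5 CPM in hyperoside replicates 1, 2 and 3. Every hyperoside library was above every control library, with no overlap. The mean rose from 126.4 ± 11.3 (SD, n = 3) to 228.2 ± 14.9 CPM (n = 3), a log2 fold change of 0.85 ± 0.08 (SE) with an adjusted p of 1.78e-07 by edgeR's quasi-likelihood test, and its 95% interval was 0.68 to 1.02. The gene lies on chr19:14514769-14560391 on the minus strand, and 5.75% of its exon bases overlap TECR on the opposite strand. The window before the DNAJB1 start that carries heat shock elements, chr19:14518398-14518647, is shown whole because DNAJB1 was the most changed chaperone, with both 2-unit matches in capitals.
DNAJB1: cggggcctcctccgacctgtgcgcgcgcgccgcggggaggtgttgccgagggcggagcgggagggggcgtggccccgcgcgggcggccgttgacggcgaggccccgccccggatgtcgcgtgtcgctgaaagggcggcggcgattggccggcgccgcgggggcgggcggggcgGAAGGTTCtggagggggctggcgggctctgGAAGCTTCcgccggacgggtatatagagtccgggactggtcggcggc
The matches begin 77 and 47 bases before the start, and CCAAT, a motif that 32.0% of all windows hold, lies on one of the strands at 108 bases.

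HSPA1B and HSPA1A are neighbouring genes on chromosome 6 that encode the heat-inducible HSP70, at chr6:31827738-31830254 and chr6:31815543-31817942 on the plus strand. HSPA1B was at 261.1, 262.1 and 253.0 CPM in the control replicates and at 394.4, 311.1 and 396.2 CPM in the hyperoside replicates. All hyperoside libraries were above all control libraries, with replicate 2 the lowest of them. The log2 fold change was 0.51 ± 0.08 (SE), with an adjusted p of 9.84e-05 by edgeR's quasi-likelihood test. HSPA1A was at 335.4, 341.4 and 336.2 CPM in the control replicates and at 400.0, 306.0 and 412.9 CPM in the hyperoside replicates. Here the groups overlapped, since hyperoside replicate 2 lay below all 3 control libraries while replicates 1 and 3 lay above them. The log2 fold change of HSPA1A was 0.14 ± 0.09 (SE), with a 95% interval of -0.05 to 0.33 and an adjusted p of 0.208 by edgeR's quasi-likelihood test. Without hyperoside replicate 2 it was 0.27, with an adjusted p of 0.00831 by the same test, so this library decided the call, and the value was 0.09 without hyperoside replicate 1 and 0.075 without hyperoside replicate 3.

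The difference between these copies is uncertain, because most of their sequence is shared. Of the 50-base words in their transcripts (GENCODE 29), 72.6% of HSPA1A and 71.4% of HSPA1B words occur in the other copy, so that counting could split or drop such reads. AL671762.1, a processed transcript that is not in the count table, overlaps 36.5% of HSPA1B exon bases on the same strand. It shares 33.8% of HSPA1A words and 35.3% of HSPA1B words. Added into 1 feature, HSPA1A and HSPA1B were at 596.5, 603.6 and 589.2 CPM in the control replicates and at 794.4, 617.1 and 809.1 CPM in the hyperoside replicates. The sum was higher in all 3 hyperoside libraries, with a log2 fold change of 0.31 ± 0.09 (SE) and an adjusted p of 0.0065 by edgeR's quasi-likelihood test. The windows before both starts were also near copies, with 235 of 249 aligned bases identical (94.4%). The HSPA1B window, chr6:31827488-31827737, is printed as the one before the copy that was called higher, with its 2-unit match in capitals.
HSPA1B: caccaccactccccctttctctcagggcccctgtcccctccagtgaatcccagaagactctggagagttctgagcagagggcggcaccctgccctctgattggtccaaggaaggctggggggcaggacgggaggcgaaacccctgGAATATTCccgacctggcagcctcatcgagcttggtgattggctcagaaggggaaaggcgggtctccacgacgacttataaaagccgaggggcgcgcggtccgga
The match begins 105 bases before the HSPA1B start and 106 bases before that of HSPA1A.

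HSPA8 is the constitutive HSP70 of the cytosol, which folds new proteins and uncoats clathrin vesicles. It was at 1765, 1589 and 1428 CPM in the control replicates and at 2020.0, 2345 and 2068 CPM in the hyperoside replicates. The lowest hyperoside library was above the highest control library, and replicate 2, lowest for HSPA1A and HSPA1B among the hyperoside libraries, was highest for HSPA8. The log2 fold change was 0.43 ± 0.08 (SE), with an adjusted p of 0.000278 by edgeR's quasi-likelihood test. HSPA8 lies on chr11:123057489-123062462, minus strand, and 15.4% of its 50-base words also occur in other genes, mainly its pseudogenes. HSPH1, the HSP110 that exchanges nucleotide on HSP70, lies on chr13:31134973-31162388, minus strand, and shared 0.0% of its words. Its level was 115.9, 125.0 and 116.8 CPM in the control replicates and 129.4, 137.3 and 119.1 CPM in the hyperoside replicates, with overlapping groups. The log2 fold change of HSPH1 was 0.11 ± 0.08 (SE), with a 95% interval of -0.05 to 0.27 and an adjusted p of 0.253 by edgeR's quasi-likelihood test, so a change of this size was not told apart from the spread between libraries. It was 0.06 without hyperoside replicate 2 and 0.17 without hyperoside replicate 3.

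**Figure D1:**
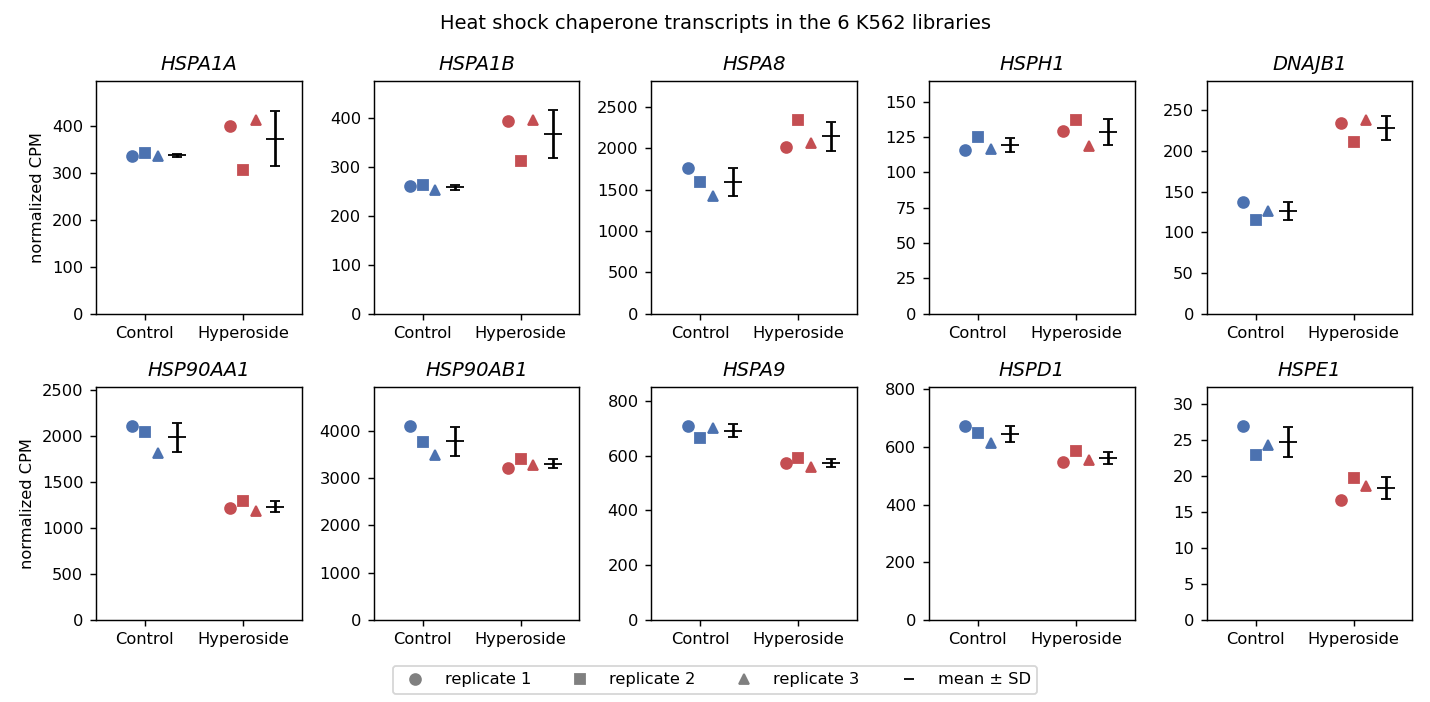
Level of each of the 10 chaperone transcripts in CPM (y axis from 0, linear) in the 3 control and 3 hyperoside libraries, with 1 point per library, the marker shape giving the replicate number, and bars for mean ± SD. The hyperoside points of DNAJB1, HSPA1B and HSPA8 lie above all control points, those of HSP90AA1, HSP90AB1, HSPA9, HSPD1 and HSPE1 lie below them, and HSPA1A and HSPH1 overlap.

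Both cytosolic HSP90 genes were lower under hyperoside. HSP90AA1, the form that heat induces, was at 2108, 2040.1 and 1810 CPM in the control replicates and at 1216, 1293 and 1186 CPM in the hyperoside replicates. The groups were far apart compared with the spread inside either of them. The mean fell from 1986 ± 156 (SD, n = 3) to 1232 ± 55.5 CPM (n = 3), and the log2 fold change was -0.69 ± 0.07 (SE), with an adjusted p of 4.64e-07 by edgeR's quasi-likelihood test. HSP90AB1, the constitutive form, was at 4099, 3749 and 3487 CPM in the control replicates and at 3214, 3398 and 3282 CPM in the hyperoside replicates. The lowest control library and the highest hyperoside library were close to each other. The log2 fold change of HSP90AB1 was -0.20 ± 0.07 (SE), with an adjusted p of 0.0244 by edgeR's quasi-likelihood test. Without control replicate 1, control replicate 2, hyperoside replicate 1 or hyperoside replicate 3 the adjusted p of HSP90AB1 by edgeR's quasi-likelihood test was 0.0667, 0.0607, 0.115 and 0.0598, which ended the call, and on the log2(FPKM + 1) scale with limma it was 0.115. HSP90AA1 lies on chr14:102080742-102139749, minus strand, and HSP90AB1 on chr6:44246194-44253883, plus strand, and 17.5% and 18.8% of their 50-base words are shared with other genes, mainly pseudogenes, while 3.75% of HSP90AA1 exon bases overlap WDR20 on the opposite strand.

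The 3 mitochondrial chaperones were lower together, by less than HSP90AA1. HSPA9, the HSP70 of the matrix at chr5:138553756-138575401, minus strand, was at 708.6, 666.0 and 700.7 CPM in the control replicates and at 572.1, 589.8 and 559.2 CPM in the hyperoside replicates. Its groups did not overlap, and the log2 fold change was -0.27 ± 0.06 (SE), with an adjusted p of 0.00235 by edgeR's quasi-likelihood test. HSPD1 and HSPE1, the chamber and the lid of the mitochondrial chaperonin, lie head to head on chromosome 2, at chr2:197486584-197500274 on the minus strand and chr2:197500379-197503449 on the plus strand, with 104 bases between their RefSeq starts. HSPD1 was at 673.1, 647.6 and 614.4 CPM in the control replicates and at 549.2, 586.5 and 553.2 CPM in the hyperoside replicates. HSPE1 was at 27.0, 22.9 and 24.3 CPM in the control replicates and at 16.7, 19.7 and 18.6 CPM in the hyperoside replicates, on 614 to 948 counts. Neither gene's groups overlapped. The log2 fold change was -0.20 ± 0.07 (SE) for HSPD1 and -0.43 ± 0.11 (SE) for HSPE1, with adjusted p of 0.0223 and 0.00328 by edgeR's quasi-likelihood test. The HSPD1 call was lost without control replicate 2, hyperoside replicate 1 or hyperoside replicate 3, where its adjusted p by edgeR's quasi-likelihood test was 0.0698, 0.11 and 0.0817. The call of HSP90AB1 was lost in each of these fits as well, so that 3 rather than 5 chaperones were called lower. In GENCODE 29, 14.2% of HSPE1 exon bases and 6.62% of HSPD1 exon bases overlap the other gene on the opposite strand, and 27.2% of HSPE1 words and 24.8% of HSPD1 words occur in other genes. HSPE1-MOB4, which is not in the count table, overlaps 9.71% of HSPE1 exon bases on the same strand and shares 16.0% of HSPE1 words. Whether the counting used strand is not given in the sources used here, so reads on the shared bases cannot be assigned.

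**Figure D2:**
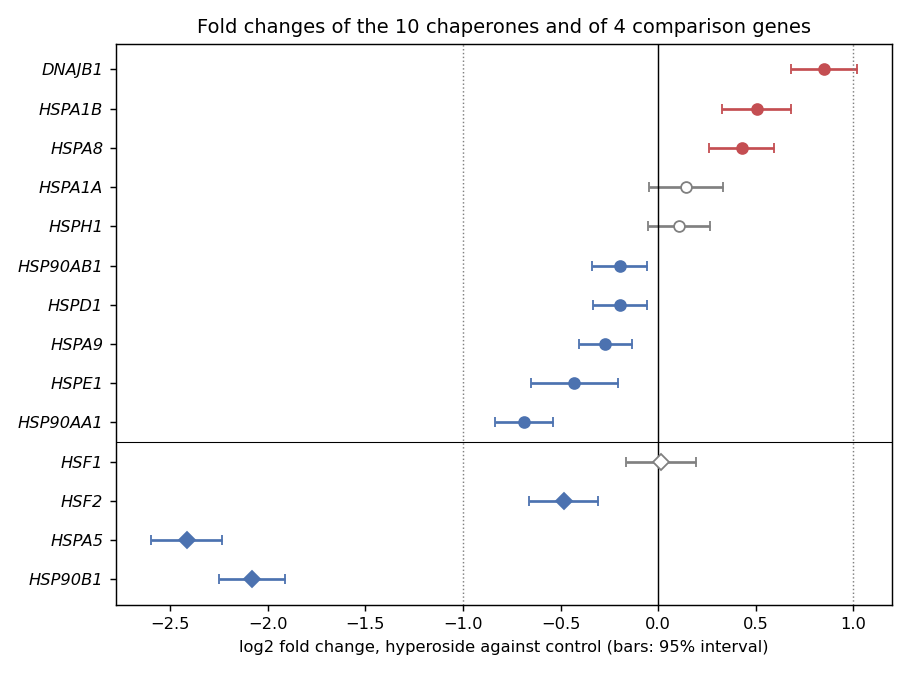
Log2 fold change of hyperoside against control with its 95% interval (x axis, dotted lines at 2-fold) for the 10 chaperones (circles) and for HSF1, HSF2 and the endoplasmic reticulum chaperones HSPA5 and HSP90B1 (diamonds), filled where called. The chaperones run from -0.69 for HSP90AA1 to 0.85 for DNAJB1, all inside the 2-fold lines as point estimates, and HSPA5 and HSP90B1 lie at -2.42 and -2.08.

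Levels per gene length were compared on the deposited FPKM scale, and the make-up of the pool shifted from HSP90AA1 toward HSPA8. In the control group the order of mean FPKM was HSP90AB1, HSPA8, HSP90AA1, HSPD1, HSPA9, HSPA1A, HSPA1B, HSPE1, DNAJB1 and HSPH1, from 1300 ± 74.0 (SD, n = 3) down to 20.6 ± 1.11 FPKM, and no neighbours in this order overlapped. The hyperoside group kept HSP90AB1, HSPA8, HSP90AA1 and HSPD1 at the top, with 1170 ± 31.4, 955 ± 77.7, 318 ± 15.3 and 243 ± 8.91 FPKM. Below them HSPA1A (158 ± 24.6), HSPA1B (148 ± 19.6) and HSPA9 (132 ± 4.11 FPKM) followed, where HSPA1A overlapped HSPA1B and HSPA1B overlapped HSPA9. DNAJB1 (56.8 ± 3.67 FPKM) was above HSPE1 (33.5 ± 2.64 FPKM), the reverse of their order in the control group, 30.4 ± 2.29 and 43.6 ± 2.85 FPKM.

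Of the summed FPKM of the 10 genes, HSPA8 took 21.9%, 21.1% and 20.4% in control replicates and 28.4%, 31.2% and 28.7% in hyperoside replicates. HSP90AA1 took 15.1%, 15.7% and 15.0% in control replicates and 9.91%, 9.98% and 9.53% in hyperoside replicates, and HSP90AB1 took 39.9% to 40.6% and 36.1% to 36.4%. DNAJB1 remained a small share, 0.857% to 1.01% in the control group and 1.57% to 1.85% in the hyperoside group. The shares of these 4 genes did not overlap between the groups. The 10 genes together held 0.893% to 0.979% of all counts in the control libraries and 0.891% to 0.936% in the hyperoside libraries, ranges that overlap.

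**Figure D3:**
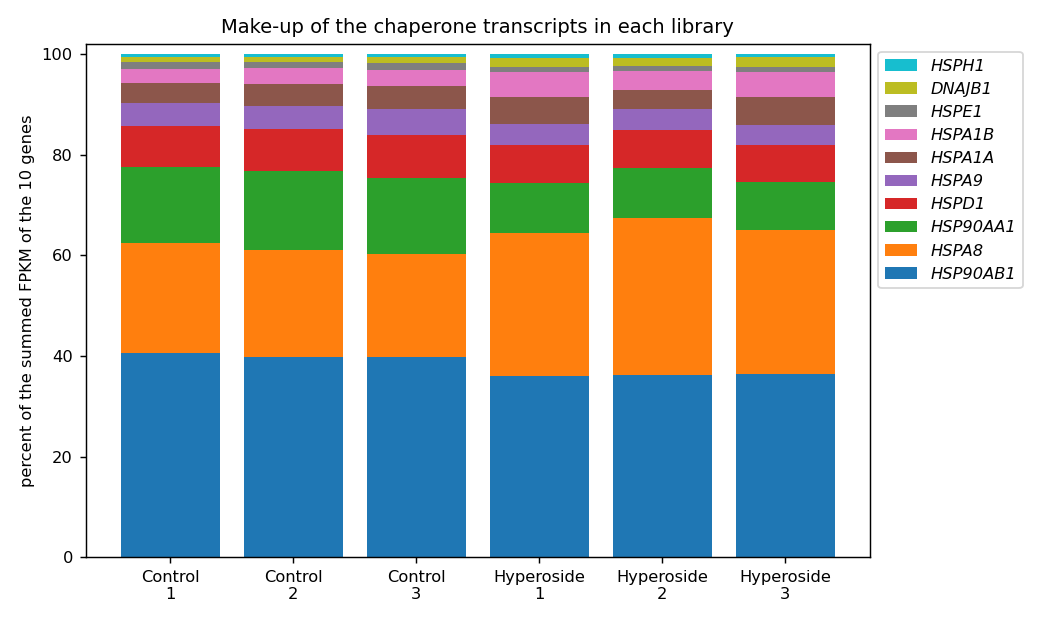
Percent of the summed FPKM of the 10 chaperone genes (y axis, 0 to 100, linear) that each gene took in the 6 libraries, 1 stacked bar per library. HSPA8 grows from 20.4% to 21.9% in the control bars to 28.4% to 31.2% in the hyperoside bars, and HSP90AA1 shrinks from 15.0% to 15.7% to 9.53% to 9.98%.

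Ratios of gene pairs within a library, which do not depend on scaling between libraries, were compared for 10 pairs with a two-sided exact permutation test, whose smallest possible p with 3 against 3 libraries is 0.1, so no ratio could pass 0.05. The FPKM ratio of HSP90AA1 to HSP90AB1 was 0.373, 0.395 and 0.376 in control replicates and 0.274, 0.276 and 0.262 in hyperoside replicates. The inducible HSP90 thus took a smaller part of cytosolic HSP90 in all 3 hyperoside libraries, a log2 difference of -0.49 with an exact permutation p of 0.1 (0.125 adjusted over the 10 pairs). The ratio of DNAJB1 to HSPA8 went from 0.0446 ± 0.00458 (SD) to 0.06 ± 0.00834, and that of HSPH1 to HSPA8 from 0.0302 ± 0.00341 to 0.0241 ± 0.0014, so that relative to HSPA8 the J-domain protein was higher and the HSP110 lower, without overlap. HSPD1 to HSPE1 went from 6.18 ± 0.434 to 7.26 ± 0.426, also without overlap. The size of this ratio may depend on how reads on bases shared with other genes were counted, which was not tested. For HSPA1A to HSPA8 and HSPA1B to HSPA8 the groups overlapped, with exact permutation p of 0.3 and 0.8.

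The ratios to the chaperones of the endoplasmic reticulum (ER) moved most. HSPA8 to HSPA5, the HSP70 of the ER, was 0.56, 0.593 and 0.557 in control replicates and 3.76, 5.0 and 3.65 in hyperoside replicates, a log2 difference of 2.85. HSP90AB1 to HSP90B1, the HSP90 of the ER, went from 0.945 ± 0.0361 to 3.51 ± 0.412, and HSP90AA1 to HSP90B1 from 0.36 ± 0.00423 to 0.951 ± 0.132. HSPA8 was thus below HSPA5 in every control library and above it in every hyperoside library. The ER genes moved further than their cytosolic relatives, as HSPA5 fell by 2.42 and HSP90B1 fell by 2.08 on the log2 scale, with adjusted p of 1.98e-12 and 3.21e-12 by edgeR's quasi-likelihood test. In all, 8 of the 10 ratios did not overlap between the groups, each with the exact permutation p of 0.1, and several share HSPA8, HSPA5 or HSP90B1. The share of gene pairs in general that separate in this way was not computed, while 54.4% of single tested genes did. Ratios to HSPA5 or HSP90B1 also carry the fall of these ER genes given above.

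**Figure D4:**
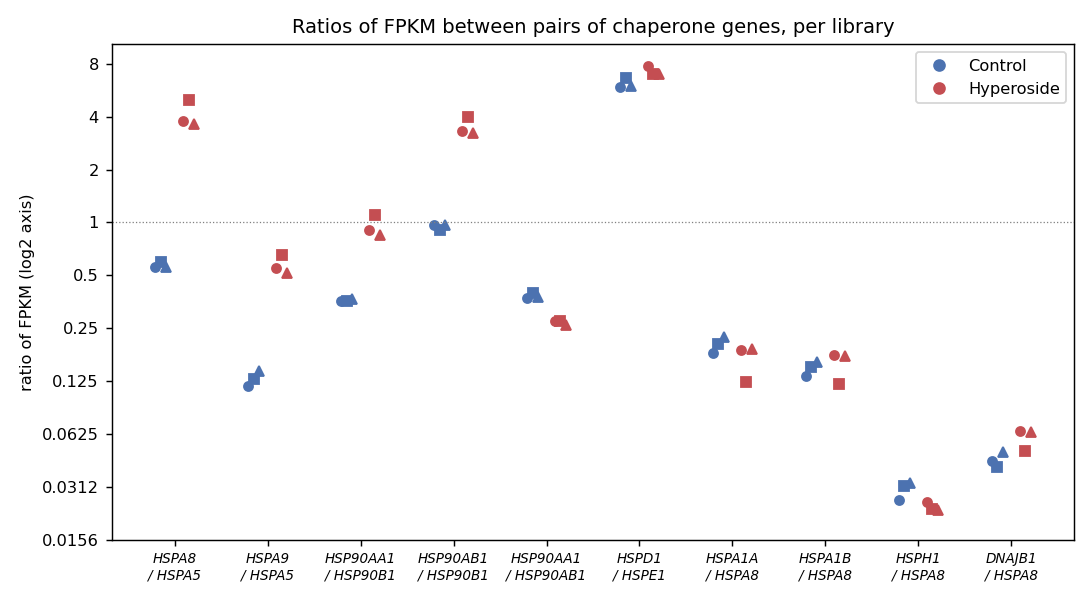
FPKM ratio of 10 gene pairs in each library (y axis on a log2 scale, dotted line at 1), with 1 point per library and marker shapes for replicates 1 (circle), 2 (square) and 3 (triangle). The ratio of HSPA8 to HSPA5 moves from 0.557 to 0.593 in the control libraries to 3.65 to 5.0 in the hyperoside libraries, while the groups overlap for HSPA1A to HSPA8 and HSPA1B to HSPA8.

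Among the transcription factors of the heat shock genes, HSF2 was lower, HSF4 was higher and HSF1 was not called. HSF1, the main heat shock factor, was at 78.0, 65.0 and 67.1 CPM in the control replicates and at 67.9, 74.7 and 69.7 CPM in the hyperoside replicates, with a log2 fold change of 0.01 ± 0.09 (SE), a 95% interval of -0.17 to 0.20 and an adjusted p of 0.905 by edgeR's quasi-likelihood test. HSF1 is regulated mainly at the protein level, which RNA does not show. HSF2, a factor that forms trimers with HSF1, fell from 54.1 to 60.6 CPM in the control libraries to 39.0 to 41.9 CPM in the hyperoside libraries, and HSF4 rose from 13.0 to 14.1 CPM to 17.4 to 23.3 CPM. Their log2 fold changes were -0.48 and 0.59, the only calls among the 4 tested of 7 listed heat shock factors and regulators, although without control replicate 1, or with DESeq2 or limma-voom, 2 were called lower.

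Partners of HSP90 were lower almost throughout. Of 16 HSP90 cochaperones tested, 13 were called lower (81.2%, beside 23.2% of all tested genes) and 0 higher, with a median log2 fold change of -0.34, beside 0.003 for all tested genes. None was higher at an unadjusted p under 0.05 by edgeR's quasi-likelihood test either, and DESeq2 also called 13 lower and 0 higher. PTGES3 (p23), which stabilizes the closed HSP90 dimer, fell from 587.3, 627.4 and 620.5 CPM to 404.9, 412.3 and 392.1 CPM, and FKBP4, which links HSP90 to steroid receptors, fell from 191.9, 172.1 and 162.8 CPM to 108.8, 120.0 and 110.5 CPM. The groups were separate for both, and the log2 fold changes were -0.60 and -0.64. The cytosolic chaperonin CCT, which folds actin and tubulin, and its delivery complex prefoldin had 9 of 14 subunits called lower (64.3%, beside 23.2% of all tested genes) and 0 higher, led by PFDN2 (-0.70) and VBP1 (-0.36), with a median of -0.20, and 0 were higher at an unadjusted p under 0.05 by edgeR's quasi-likelihood test or by DESeq2. This count came down to 3 of 14, near the share of all tested genes, and was less stable than that of the HSP90 partners, with 5 without control replicate 1, 3 without hyperoside replicate 1, 4 without hyperoside replicate 3 and 4 with library totals as the only scaling, and 1 subunit was called higher without control replicate 1.

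The J-domain partners of HSP70 were called about as often as tested genes in general, while its other partners had no gene called higher. Among 18 tested J-domain proteins other than DNAJB1, 4 were called higher and 4 lower around a median log2 fold change of -0.02, which is 22.2% in each direction beside 22.1% and 23.2% of all tested genes. DNAJC11 of the mitochondrial membrane rose from 49.6 to 61.6 CPM in the control libraries to 86.2 to 111 CPM in the hyperoside libraries (log2 0.82), and DNAJB12, whose J domain faces the cytosol from the ER membrane, rose by 0.56. DNAJB4, a close relative of DNAJB1, went the other way, from 41.1 to 51.5 CPM to 27.2 to 33.3 CPM (log2 -0.66), and DNAJC19 of the import motor fell by 0.47. The count of higher J-domain genes was 2 without control replicate 2 or without hyperoside replicate 1, and that of lower ones was 2 without hyperoside replicate 1 or without hyperoside replicate 3 and 2 with library totals. Of 12 nucleotide exchange factors and other HSP70 cochaperones, 3 were called lower and 0 higher, led by GRPEL2, an exchange factor of HSPA9 (log2 -0.83), and BAG2, an inhibitor of the ligase CHIP (-0.32). This 25.0% called lower stood beside 23.2% of all tested genes, and the 0.0% called higher beside 22.1%. By edgeR's quasi-likelihood test 1 of the 12 was higher at an unadjusted p under 0.05 and DESeq2 called 1 higher, as many as 2 were called higher without control replicate 1, and 1 was called lower without hyperoside replicate 3. BAG2 was not called without control replicate 2 or hyperoside replicate 3, where its adjusted p by edgeR's quasi-likelihood test was 0.057 and 0.0889. Of 5 tested other HSP70 and HSP110 genes, HSPA4L (-0.64) and HSPA14 (-0.51) were called lower, 40.0% beside 23.2% of all tested genes. None was called higher by edgeR's quasi-likelihood test, beside 22.1% of all tested genes, and none by DESeq2. By edgeR's test 1 was higher at an unadjusted p under 0.05, and 1 was called higher without control replicate 1.

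Of 10 other mitochondrial chaperones and proteases, 2 were called higher and 3 lower, close to the 22.1% and 23.2% of all tested genes, among them the proteases AFG3L2 (log2 0.39) and LONP1 (-0.39), the disaggregase CLPB (0.33) and the mitochondrial HSP90 TRAP1 (-0.31). The higher count was 1 without control replicate 2, control replicate 3, hyperoside replicate 2 or hyperoside replicate 3, each of which ended the call of CLPB, and the lower count was 1 without hyperoside replicate 1, which ended that of TRAP1. CLPB was at a log2 fold change of 0.22 without hyperoside replicate 2, and TRAP1 at -0.19 without control replicate 1. Among 5 tested small heat shock proteins, CRYAB rose from 6.85, 7.44 and 5.68 CPM to 20.1, 13.9 and 19.5 CPM, a log2 fold change of 1.42, and HSPB1, a stress-induced holdase, fell by 0.28 on the log2 scale. The value of HSPB1 was -0.17 without control replicate 1, and it was not called without hyperoside replicate 2, where its adjusted p by edgeR's quasi-likelihood test was 0.0628. CRYAB was past 2-fold, unlike the 10 chaperones.

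Outside the 10 chaperones, genes known to be induced through HSF1 by heat did not rise as a group. Of 22 such genes outside the 10, 14 of which also stand in the lists above, 13 were called lower (59.1%, beside 23.2% of all tested genes) and only CRYAB was called higher, with a median log2 fold change of -0.20. The lower ones included PTGES3 and FKBP4. By edgeR's quasi-likelihood test 2 were higher at an unadjusted p under 0.05, and 3 were called higher without control replicate 1 or with library totals. DNAJB1, HSPA1B and HSPA8, which were called higher, are among the 10 and so are not in this list. HSPA6, known as heat-inducible, was detected in the control group too, on 498 to 674 counts. It was at 14.2, 17.7 and 18.9 CPM in the control replicates and at 18.2, 12.6 and 21.7 CPM in the hyperoside replicates, with overlapping groups. BAG3, an exchange factor that heat induces, was at 42.1 to 51.6 CPM in the control group and 49.3 to 51.1 CPM in the hyperoside group, also overlapping. Neither HSPA6 nor BAG3 was called, with adjusted p of 0.829 and 0.291 by edgeR's quasi-likelihood test, and both were named after their values were seen. The 14 ER chaperones listed for comparison had 11 called lower (78.6%, beside 23.2% of all tested genes) and 0 higher. By DESeq2, or at an unadjusted p under 0.05 by edgeR's quasi-likelihood test, 0 were higher. Of the 14, 7 were called past 2-fold, beside 10.2% of all tested genes, and the median was -0.97. This is a wider fall than in any of the cytosolic and mitochondrial lists by its median, and the lists were not compared by a test.

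**Figure D5:**
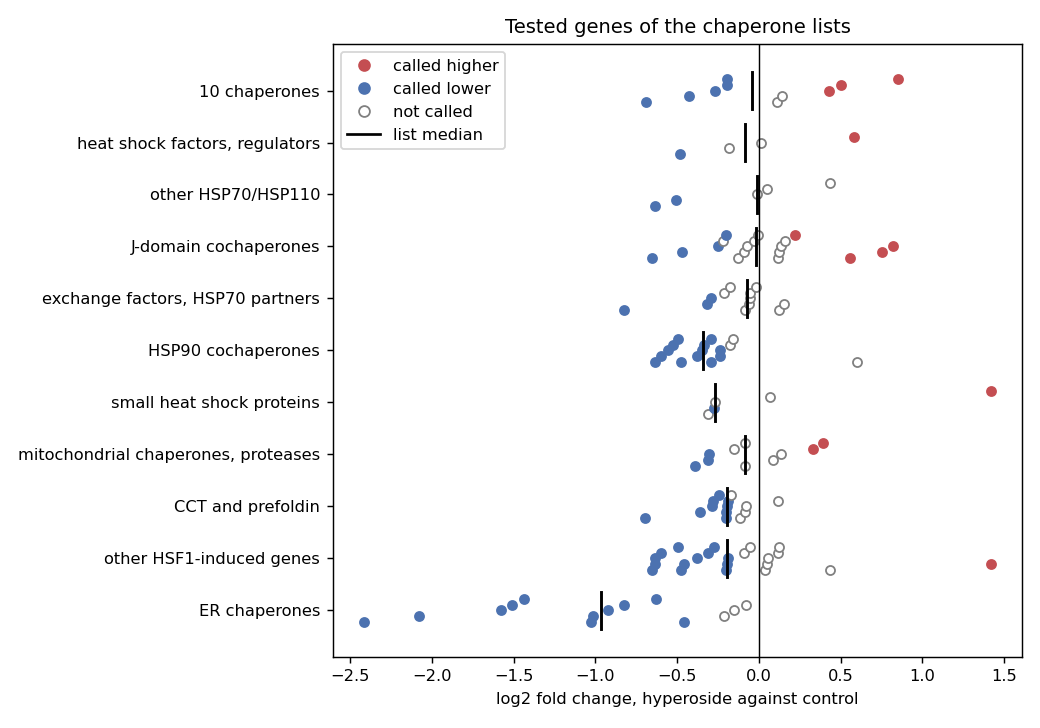
Log2 fold change (x axis) of every tested gene in the 10 chaperones and in 10 other chaperone lists (y axis, 1 row per list), with filled points for genes called higher or lower, open points for genes not called and a black line at the list median. The 10 chaperones spread to both sides around a median of -0.04, HSP90 cochaperones lie mostly to the left at a median of -0.34, and ER chaperones lie furthest left at -0.97.

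Libraries of the same group differed from each other in a pattern that several chaperones shared. In hyperoside replicate 2 the log2 level of HSPA1A, HSPA1B and DNAJB1 deviated from the group mean by -0.27, -0.23 and -0.11, while that of HSPA8 deviated by 0.13. Control replicate 1 was highest and control replicate 3 lowest for HSPA8, HSP90AA1, HSP90AB1 and HSPD1, for HSPA8 by 0.15 and -0.15. The ratio of the highest to the lowest hyperoside library was 1.35 for HSPA1A and 1.27 for HSPA1B, beside 1.02 and 1.04 in the control group. Among 2077 other genes with a mean of at least 100 CPM, those whose centred log2 level over the 6 libraries lay nearest to that of DNAJB1 were BTG2, FURIN, PFKP, UCA1 and ACTG1, at Euclidean distances of 0.142 to 0.238. All 5 rose, with log2 fold changes of 0.80, 0.75, 0.86, 0.96 and 0.87, as a description of profiles that the search itself selected.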

How the data were processed

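RNA-seq libraries of K562 cells were compared between the control group (n = 3) and the hyperoside group (n = 3), grouped by the sample labels. The authors deposited 2 tables, one of raw read counts on each gene and one of FPKM values, in which gene length and library size were divided out of those counts. Per the submitters' processing notes, reads were processed with fastp, HISAT2 and HTSeq on hg38, and versions, annotation and strand setting are not given in the sources used here. Libraries were made with the VAHTS Universal V6 RNA-seq kit from total RNA, as the labels say.

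The count analysis used edgeR 4.0.16 under R 4.3.3. After filterByExpr (minimum count 10, minimum total 15) and TMM scaling (factors 0.957 to 1.03), the groups were compared by quasi-likelihood tests without covariates, and Benjamini-Hochberg adjustment covered all tested genes. CPM values are TMM-normalized, and the SE is the log2 fold change divided by the square root of the F statistic. The threshold for a call was an adjusted p of 0.05, and changes past 2-fold were counted too. The test was checked on simulated counts. FPKM values served for levels between genes and for ratios, and ratios were tested on log2 count ratios with two-sided exact permutation tests over the 20 regroupings of the libraries. Alternatives were fits with DESeq2 1.42.0 and limma 3.58.1, other scalings and filters, a block for the replicate number, and fits that omitted 1 library each. Tables, sequence searches and plots were made in Python 3.11.15 with pandas 2.3.3, numpy 2.4.6 and matplotlib 3.10.9. Positions and windows before start sites came from RefSeq (GRCh38.p14), and transcripts and exons from GENCODE 29 on GRCh38.

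The members and gene lists were chosen with earlier results of these data known. The genes named were every member, up to 2 genes per list and direction with the smallest adjusted p, HSF1, HSF2, HSPA5, HSP90B1 and the 5 nearest profiles to the most changed member, and others are marked in the text. Columns of the authors' own annotation other than gene identifiers were not used here.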

Additional observations from a re-analysis of the deposited data

How the results depend on the processing

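Across 16 alternatives the number of chaperones called higher was 3 in all but one, and 4 without hyperoside replicate 2, where HSPA1A was also called. The number called lower ranged from 3 to 5 with 1 library left out. DNAJB1, HSPA1B, HSPA8, HSPA9, HSP90AA1 and HSPE1 kept their call and direction in every alternative run, with log2 fold changes of 0.79 to 0.92 for DNAJB1 and -0.76 to -0.64 for HSP90AA1, and 0 chaperones passed 2-fold in any of them. HSP90AB1 lost its call in 7 of 16 alternatives, with log2 fold changes between -0.25 and -0.13. The scaling between libraries moved the median log2 fold change of all tested genes to at most 0.053. Lists other than the members were recomputed under 15 alternatives chosen after seeing the data. The lower count was 10 to 13 of 16 for HSP90 cochaperones, 10 to 13 of 22 for HSF1-induced genes and 11 to 12 of 14 for ER chaperones. It was 3 to 9 of 14 for CCT and prefoldin, with 4 on the FPKM scale, 2 to 4 of 18 for J-domain proteins and 1 to 3 of 12 for exchange factors. The cause of these shifts was not tested.

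The sign of HSF1, which was not called, turned to -0.039 without control replicate 2, -0.019 without control replicate 3 and -0.026 without hyperoside replicate 2, in a range of -0.039 to 0.102 with 1 library left out. The difference in the log2 ratio of HSPA1B to HSPA8, 0.066 over all libraries, was -0.003 without control replicate 1, -0.031 without hyperoside replicate 1 and -0.017 without hyperoside replicate 3, in a range of -0.031 to 0.248.

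Replicate numbers are shared by the groups in the labels, which do not say whether they pair the libraries. The deviations of libraries with the same number correlated across genes at -0.151, -0.035 and -0.024, and those of libraries with different numbers at -0.076 to 0.107. With the replicate number as a block, 3 chaperones were called lower, since the adjusted p by edgeR's quasi-likelihood test was 0.0702 for HSP90AB1 and 0.065 for HSPD1, 3 were called higher, 3 CCT and prefoldin subunits were called lower, and 6129 rather than 6841 genes were called in all. Among the chaperones, HSPE1 had the fewest counts, 614 to 948 per library, and the largest SE of the log2 fold change, 0.11. The part of depth in this SE was not tested.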
